A study of Mus musculus with 9 samples.

Results

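The stearoyl-CoA desaturase family of the mouse holds 4 genes, Scd1, Scd2, Scd3 and Scd4, chosen here by name. Of these, Scd1 and Scd2 are described with their expression among 16755 genes, and the expression of Scd3 and Scd4 was not analysed here. RNA was sequenced from 9 livers of mice labelled C57BL/6 (C57BL/6J background in the study's methods), 3 in each of 3 groups. All mice carried Scd2 with loxP sites around the third exon (Scd2f/f), the untreated controls included. The first group was untreated Scd2f/f liver, and the second was liver of Scd2f/f mice that had received diethyl nitrosamine (DEN, a liver carcinogen; 10 mg/kg) when 2 weeks old and were then given Western alcohol diet (WAD), a liquid feed in which ethanol is combined with lard and cholesterol, for 4 months from the age of 6 weeks, by the labels. The study's methods give a longer time on WAD, and say that the mice were males. The third group, Scd2f/f;CC, had the same treatment and also carried Cre recombinase under the Col1a1 promoter, so that Scd2 is deleted in cells that express this collagen gene, mainly activated hepatic stellate cells (HSC) and portal fibroblasts, and stays intact in other liver cells. The labels call the tissue liver, while the study describes tumor-adjacent liver (TAL) in one place and NTL in another. The labels' treatment text is the same for all samples, and the untreated group was set apart by the treatment field and the titles. Values are the authors' least-squares means of normalized read counts, 1 per group, with no spread between mice beside them, and the authors' own test columns were not used, so that no difference below was tested and no SD is given. The depth of each library is unknown. In bulk liver, fewer cells of a type and less RNA per cell cannot be told apart. Alb, the albumin gene of hepatocytes, had means from 20900 to 22700, and Cyp2e1 had means from 3460 to 4570.

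Stearoyl-CoA desaturases sit in the endoplasmic reticulum membrane and place the first double bond into saturated acyl-CoA, which turns stearate into oleate and palmitate into palmitoleate. The electrons come from NAD(P)H through cytochrome b5 reductase and cytochrome b5. Scd1 is known as the main isoform of mouse hepatocytes and as a target of SREBP-1c and of the liver X receptors, and Scd2 as the isoform of many other cell types, among them HSC. The products are esterified into triglycerides, phospholipids and cholesteryl esters, and palmitoleate is also attached to Wnt proteins by PORCN.

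The 4 genes lie next to each other on chromosome 19 from 44203269 to 44407879 (GRCm38, GENCODE M21), a stretch of 204.6 kb, in the order Scd3, Scd2, Scd4 and Scd1. Scd1 is on the minus strand and the others on the plus strand. The longest coding transcript of each has 6 exons. Scd1, Scd2, Scd3 and Scd4 encode 355, 358, 359 and 353 residues in these transcripts. The third exon, the one that Cre removes from Scd2, is entirely coding and has 131 bases in each of the 4 genes. In Scd2 it lies at chr19:44298040-44298170 on the plus strand. In Scd1 it lies at chr19:44403165-44403295 on the minus strand, in Scd3 at chr19:44234223-44234353 and in Scd4 at chr19:44337501-44337631, both on the plus strand. These exons are shown because the deletion acts on this sequence in Scd2 and because reads from it could be shared between the genes. Each is written in the direction of transcription, and capitals mark bases that differ from Scd2:

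Scd2: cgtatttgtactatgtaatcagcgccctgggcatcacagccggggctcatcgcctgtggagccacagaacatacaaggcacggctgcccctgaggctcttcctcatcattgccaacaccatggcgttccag
Scd1: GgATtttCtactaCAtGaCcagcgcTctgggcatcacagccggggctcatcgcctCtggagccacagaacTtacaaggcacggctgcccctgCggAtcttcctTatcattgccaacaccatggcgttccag
Scd3: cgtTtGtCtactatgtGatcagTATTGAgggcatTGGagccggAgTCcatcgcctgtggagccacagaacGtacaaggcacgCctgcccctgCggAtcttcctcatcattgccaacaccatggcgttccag
Scd4: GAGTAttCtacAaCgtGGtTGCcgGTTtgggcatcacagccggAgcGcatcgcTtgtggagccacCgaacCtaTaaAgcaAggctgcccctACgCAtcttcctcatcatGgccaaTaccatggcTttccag

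Exon 3 of Scd1 differed from that of Scd2 at 14 of 131 positions, that of Scd3 at 20 and that of Scd4 at 31. A length of 131 bases leaves a remainder of 2 when divided by 3, so joining exon 2 to exon 4 shifts the reading frame. In Scd2, exon 3 follows 102 whole codons, and in the joined sequence a stop codon comes after 103 codons in place of 358. Exon 3 makes up 2.40% of the Scd2 transcript of 5455 bases. The gene-level mean sums reads over all exons, so it does not separate exon 3 from the rest, and reads from the other exons of a deleted allele would still be counted.

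**Figure D1:**
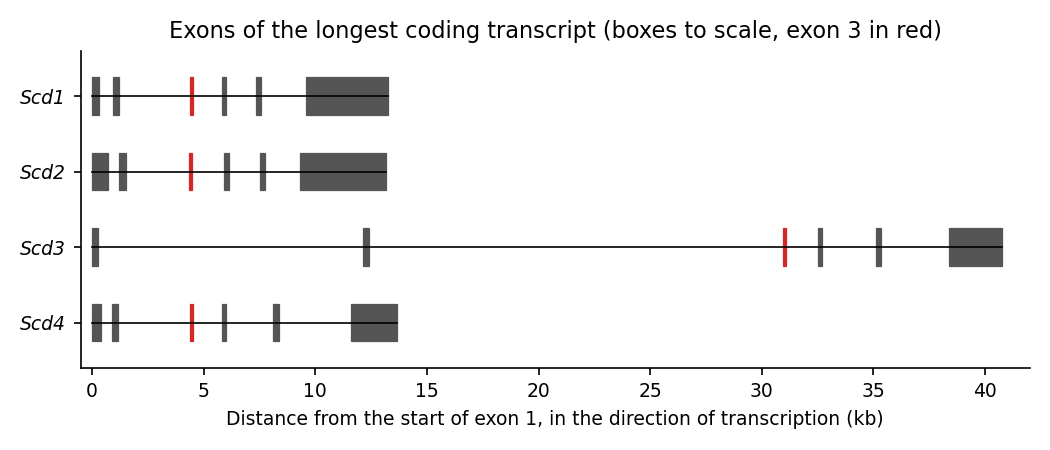
Exons of the longest coding transcript of the 4 Scd genes, drawn to scale against the distance from the start of exon 1 in kb, with exon 3 in red. All 4 have 6 exons and a long last exon, and the gene of Scd3 spans 40.7 kb against 13.2 to 13.7 kb for the others.

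The coding sequences of Scd1 and Scd2 were identical at 90.4% of 1068 aligned bases. The lowest identity in the family was 84.0%, between Scd2 and Scd4, and the highest was 91.5%, between Scd1 and Scd3. The longest identical run between the transcripts of Scd1 and Scd2 was 147 bases. Of all windows of 50 bases in the Scd1 transcript, 3.03% occur without mismatch in the Scd2 transcript, and for windows of 75 bases the share was 1.66%. The read length of these libraries is not given in the sources used here. The means of Scd2 equaled 0.147% of those of Scd1 in untreated liver, 0.102% in treated Scd2f/f and 0.0352% in Scd2f/f;CC. Reads that fit both genes were divided between them by the authors' counting, so the mean of Scd2 is uncertain where a small share of Scd1 reads could be assigned to it. If the whole Scd2 mean in Scd2f/f;CC were such reads and the same share of Scd1 applied in each group, they would equal 2.24 of 6.47 in treated Scd2f/f and 0.588 of 2.46 in untreated liver.

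Scd1 was among the genes with the highest mean counts in these livers, with a higher mean in both treated groups than in untreated Scd2f/f. Its mean was 1670 in untreated Scd2f/f liver, 6360 in treated Scd2f/f and 5310 in treated Scd2f/f;CC. The treated groups thus had the higher means, and their order, Scd2f/f above Scd2f/f;CC, cannot be set against a spread between mice. Treated Scd2f/f liver had 3.81 times the mean of untreated liver, a log2 ratio of 1.93. Rounding of the means to 3 digits allows a log2 ratio from 1.92 to 1.93, and no error from the spread between mice was computed. Between Scd2f/f;CC and Scd2f/f, both treated, the log2 ratio was -0.26, a mean lower by 16.5%. Against untreated liver, Scd2f/f;CC had 3.18 times the mean (log2 ratio 1.67). No untreated Scd2f/f;CC liver was among the samples, so genotype and treatment cannot be told apart in this ratio. The difference from untreated liver was 4690 in Scd2f/f and 3640 in Scd2f/f;CC, so that the latter equaled 77.6% of the former. In rank by mean count, with no correction for gene length, 51 genes had a higher mean than Scd1 in untreated liver, 11 in treated Scd2f/f and 17 in Scd2f/f;CC. Scd1 took 0.204% of the summed means of all genes in untreated liver, 0.966% in treated Scd2f/f and 0.718% in Scd2f/f;CC. These sums differ between the groups and depend strongly on a few genes, among them Rn7s1 and Rn7s2, each with means of 65300, 27500 and 51000.

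Scd2, the targeted gene, was higher in treated than in untreated Scd2f/f liver, and not higher in treated Scd2f/f;CC. Its mean was 2.46 in untreated Scd2f/f liver, 6.47 in treated Scd2f/f and 1.87 in treated Scd2f/f;CC. The highest mean was that of treated Scd2f/f, and whether the other 2 groups differ beyond the spread between mice was not tested. Treated Scd2f/f liver had 2.63 times the mean of untreated liver (log2 ratio 1.40, from 1.39 to 1.40 with rounding). In Scd2f/f;CC the mean was lower than in treated Scd2f/f by 71.1%, or 3.46-fold (log2 ratio -1.79, from -1.80 to -1.79 with rounding). Against untreated liver it was lower by 24% (log2 ratio -0.40), a ratio in which genotype and treatment again cannot be told apart. By mean count, with no correction for gene length, Scd2 was a gene of middling level in these livers. Of all genes, 42.6% had a lower mean in untreated liver, 57.9% in treated Scd2f/f and 38.1% in Scd2f/f;CC.

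**Figure D2:**
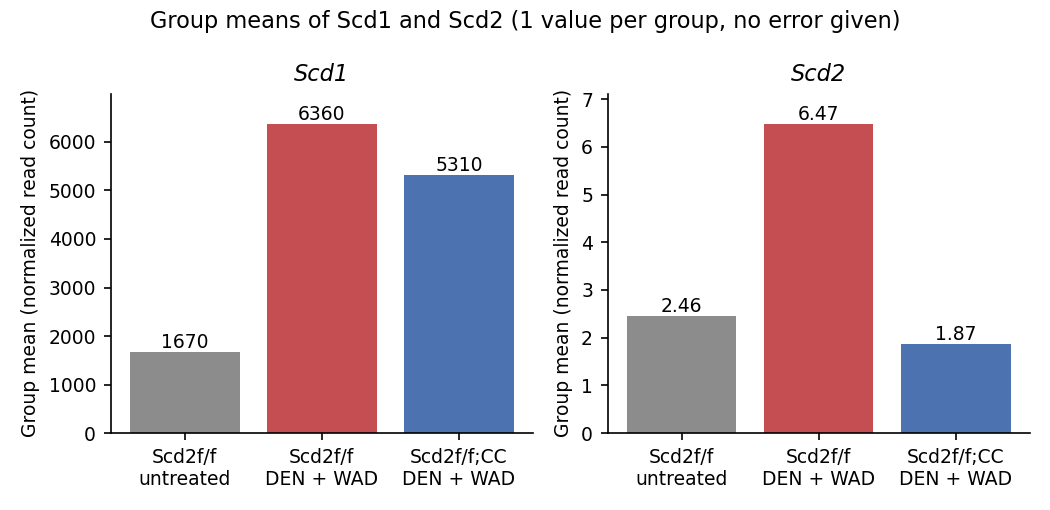
Group means of Scd1 (left) and Scd2 (right) as normalized read counts on axes that start at 0, 1 bar per group and no error bars, since 1 value per group is given. Scd1 is high in both treated groups (6360 and 5310 against 1670), and Scd2 is high in treated Scd2f/f (6.47) with 2.46 and 1.87 in the other groups.

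Read against all genes, a difference of at least 2-fold from untreated to treated Scd2f/f liver was common. Scd1 and Scd2, 2 of 2, were higher by at least 2-fold, as were 9.37% of 16755 genes, while 4.69% were lower by as much. Scd1 had a larger ratio than 97.3% of all genes and Scd2 a larger one than 94.4%. Between Scd2f/f;CC and treated Scd2f/f, 1 of 2, Scd2, was lower by at least 2-fold, as were 4.07% of all genes, and 1.82% were higher. Of all genes, 157 (0.937%) had a smaller ratio than Scd2 in this comparison, whereas 3568 (21.3%) had a smaller one than Scd1. At least 2-fold higher in treated than in untreated Scd2f/f were 754 genes whose mean over the groups reached 1, both members among them. Of these 754 genes, 672 were lower in Scd2f/f;CC than in treated Scd2f/f, 89 (11.8%) of them by at least 2-fold. Their median log2 ratio between the treated groups was -0.46. Against untreated liver, 1 of 2, Scd1, was higher in Scd2f/f;CC by at least 2-fold, as were 6.41% of all genes, and 4.64% were lower. The 3 ratios share their group means, so the third follows from the others, and a chance high value in treated Scd2f/f would raise the first and lower the second.

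Per kb of exons, the scale on which levels of the 2 genes can be compared, the level of Scd1 was 341 normalized counts in untreated liver, 1300.1 in treated Scd2f/f and 1085 in Scd2f/f;CC. On the same scale the level of Scd2 was 0.450, 1.18 and 0.342. The level of Scd1 was thus 758 times that of Scd2 in untreated liver, 1098 times in treated Scd2f/f and 3172 times in Scd2f/f;CC. Scd2 made up 0.132%, 0.0910% and 0.0315% of the summed level of the pair in the same order of groups. The share of Scd2 was smaller in treated than in untreated Scd2f/f liver although its own mean was higher, because Scd1 differed by more.

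Markers of the cell types in which Cre is active were set beside Scd2. Col1a1, whose promoter drives Cre, had means of 4.69 in untreated liver, 19.6 in treated Scd2f/f and 4.51 in Scd2f/f;CC, highest in treated Scd2f/f as for Scd2. Its log2 ratio was 2.06 with DEN + WAD and -2.12 between Scd2f/f;CC and treated Scd2f/f, next to 1.40 and -1.79 for Scd2. Of 10 HSC markers, 10 were lower in Scd2f/f;CC than in treated Scd2f/f, 5 of them by at least 2-fold, with a median log2 ratio of -0.94. Over all genes the median of that comparison was 0. Lrat, the retinol-esterifying enzyme of HSC, had means of 15, 19 and 16, so this marker of the cell type differed less than Col1a1 or Scd2. Acta2, the smooth muscle actin of myofibroblasts, had means of 1.27, 1.20 and 0.388. The summed means of the HSC markers were 212 in untreated liver, 326 in treated Scd2f/f and 206 in Scd2f/f;CC. Of 5 portal fibroblast markers, 5 were lower in Scd2f/f;CC than in treated Scd2f/f, 4 of them by at least 2-fold, with sums of 2.87, 5.56 and 2.39 over the groups. A low level, with a mean over the groups under 1, was found for 4 of these 5 and for 1 of the 10 HSC markers. The part of HSC and portal fibroblasts in the result for Scd2 was not tested.

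Macrophages, endothelial cells and dendritic cells keep an intact Scd2 by design. All 6 macrophage markers were at least 2-fold higher after DEN + WAD in Scd2f/f, with a median log2 ratio of 2.08, and 0 of 6 differed by 2-fold between Scd2f/f;CC and treated Scd2f/f. Adgre1, which encodes F4/80, had means of 5.70, 19 and 17.7, and Cd68 had means of 1.64, 8.87 and 5.66. Set against treated Scd2f/f, 5 of the 6 macrophage markers had a smaller mean in Scd2f/f;CC and 1 had a larger mean. The median log2 ratio of the 6 in that comparison was -0.19. The part of macrophages in the result for Scd2 was not tested. Summed, the macrophage markers came to 75.4, 288 and 258. Of 4 dendritic cell markers found, 3 were at least 2-fold higher after DEN + WAD, and Itgax, which encodes CD11c, had means of 0.235, 3.66 and 1.12. All 4 were lower in Scd2f/f;CC than in treated Scd2f/f, 1 of them (Itgax) by at least 2-fold, with a median log2 ratio of -0.89. Their sums were 3.23, 8.20 and 5.08. Of 6 endothelial markers, 2 were at least 2-fold higher after DEN + WAD (Lyve1 and Cdh5), and 0 differed by 2-fold between the treated groups, with sums of 105, 142 and 143. Cholangiocyte markers had sums of 6.37, 8.04 and 4.31, and 3 of 4 (Krt7, Krt19 and Epcam) were lower by at least 2-fold in Scd2f/f;CC than in treated Scd2f/f. The median log2 ratio of the 4 in that comparison was -1.87. Of 6 hepatocyte markers, 0 differed by 2-fold in any comparison, with sums of 33921, 31919 and 36023. T and B cell markers had sums of 0.893, 2.86 and 2.19, and 1 of 5, Cd3e, was lower by at least 2-fold in Scd2f/f;CC. Of 4 adipocyte markers, Cidec was found, with means of 8.85, 14.3 and 5.56. None of the listed markers that were found had a mean of 0. A mean over the groups under 1 was found for 5 of 5 T and B cell, 2 of 4 dendritic cell and 2 of 4 cholangiocyte markers.

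The enzymes that supply the substrates of the desaturases did not follow Scd1. Of 9 genes for the supply of palmitate and stearate, 0 were higher and 9 lower in treated than in untreated Scd2f/f liver, 3 of them by at least 2-fold. When each group was scaled to its summed means, 6 of the 9 were lower and 3 higher, with a median log2 ratio of -0.23. As deposited the median was -0.55, beside 0.04 over all genes and 1.93 for Scd1. Fasn, the fatty acid synthase, had means of 243 in untreated liver, 150 in treated Scd2f/f and 116 in Scd2f/f;CC. Acly, which makes cytosolic acetyl-CoA from citrate, had means of 139, 52.2 and 63.6. Thrsp, a lipogenic gene also known as Spot14, had means of 107, 19.5 and 25.6. Fasn, Acly and Thrsp were thus highest in the untreated group, where Scd1 was lowest. Between Scd2f/f;CC and treated Scd2f/f, 0 of 9 differed by 2-fold, with a median of -0.09.

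Elongases and the other desaturases varied among themselves. Of 6 elongases found, Elovl3, Elovl5 and Elovl7 were at least 2-fold higher after DEN + WAD, and 0 were lower by as much. Elovl6, which extends palmitate to stearate, had means of 63.4, 32.1 and 37.0, a log2 ratio of -0.98 with DEN + WAD. Elovl3, an elongase of saturated and monounsaturated very long chains, had means of 13.7, 34.3 and 73.2, and was the only one of them at least 2-fold higher in Scd2f/f;CC than in treated Scd2f/f. Elovl7 was lower by at least 2-fold there, at means of 0.735 in treated Scd2f/f and 0.186 in Scd2f/f;CC. Elovl5, an elongase of polyunsaturated chains, had means of 119, 244 and 212. Of the other fatty acyl desaturases, 0 of 5 differed by 2-fold in any comparison. Fads1, the delta-5 desaturase, had means of 178, 110 and 92.9, and Fads2, the delta-6 desaturase, 113, 160 and 129. Their median log2 ratio with DEN + WAD was -0.16, which turned to 0.15 when each group was scaled to its summed means. Of the electron donors, 0 of 5 differed by 2-fold in any comparison, and Cyb5a, the microsomal cytochrome b5, had means of 414, 290 and 327.

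**Figure D3:**
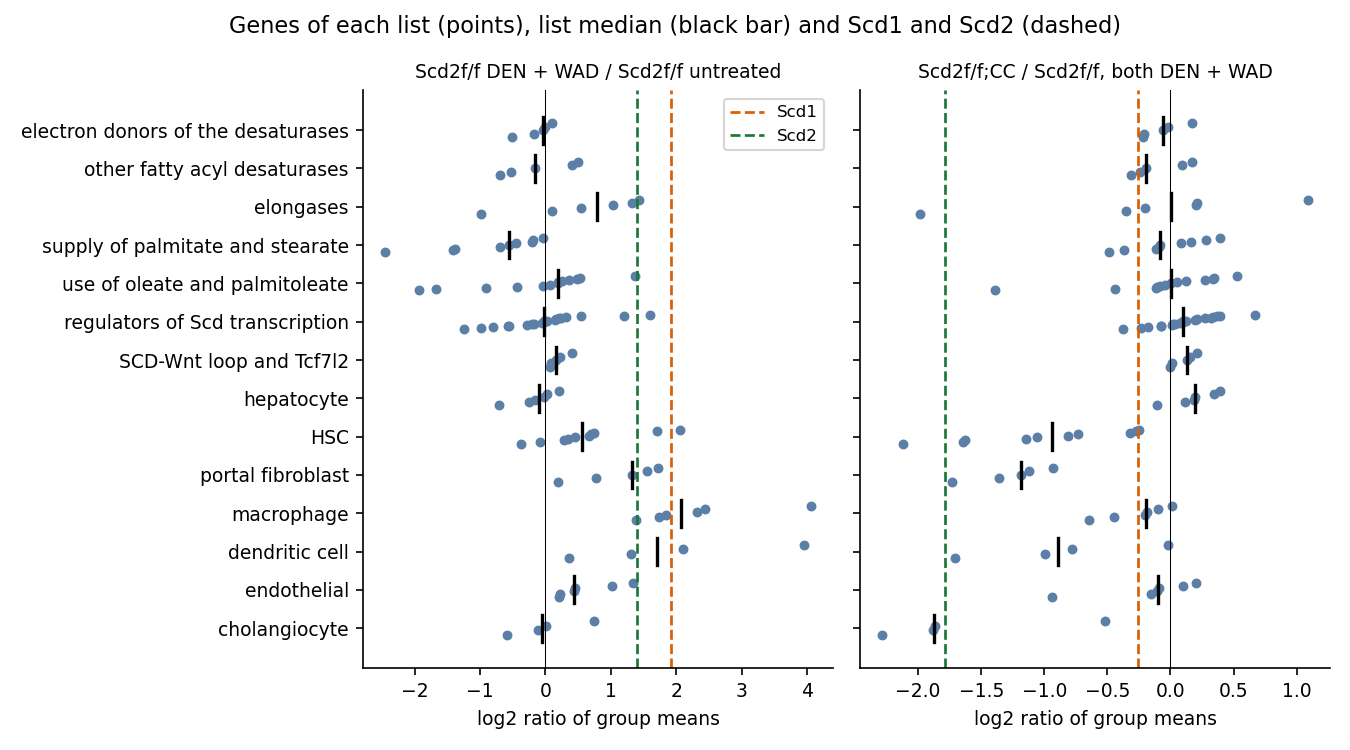
Log2 ratios of group means for the genes of the lists drawn (points), the list median (black bar) and Scd1 and Scd2 (dashed lines). The left side compares treated with untreated Scd2f/f liver, and the right side Scd2f/f;CC with Scd2f/f, both treated. The adipocyte markers, the T and B cell markers and the nuclear receptor targets are not drawn. On the left the 9 supply genes lie at or below -0.04 as deposited (6 of 9 below 0 when scaled to the summed means) while Scd1 is at 1.93. On the right the HSC and portal fibroblast markers lie between -0.25 and -2.12 and the cholangiocyte markers between -0.51 and -2.29, with Scd2 at -1.79.

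Genes listed for the use of oleate and palmitoleate, not all of them specific to these acyl chains, differed in both directions. With DEN + WAD, 1 of 13 was at least 2-fold higher and 2 were lower. The higher one was Soat1, which esterifies cholesterol with oleate, at means of 3.23 in untreated liver, 8.38 in treated Scd2f/f and 6.18 in Scd2f/f;CC. The lower ones were Acsl4, an acyl-CoA synthetase with a preference for arachidonate, at 198, 62.2 and 64.5, and Lpin1, a phosphatidate phosphatase, at 184, 48.1 and 18.3. Lpin1 was also lower by at least 2-fold in Scd2f/f;CC than in treated Scd2f/f (log2 ratio -1.39). Dgat2, which makes triglyceride, had means of 156, 115 and 145, and Porcn had means of 0.573, 0.658 and 0.620.

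Of 20 regulators of Scd transcription, 2 were at least 2-fold higher and 1 lower after DEN + WAD in Scd2f/f. Insig2, which holds SCAP and the SREBP precursors in the endoplasmic reticulum, had means of 40.8 in untreated liver, 124 in treated Scd2f/f and 126 in Scd2f/f;CC. Insig1, its sterol-responsive partner, had means of 128, 54.1 and 46.1. Pparg, a nuclear receptor of fat storage, had means of 4.01, 9.28 and 7.17. Srebf1, which encodes SREBP-1, had means of 60.3, 67.7 and 108, and Srebf2 had means of 23.4, 11.8 and 11.2. Nr1h3, which encodes the liver X receptor alpha, had means of 33.5, 32.5 and 32.7. Between Scd2f/f;CC and treated Scd2f/f, 0 of 20 differed by 2-fold, and the log2 ratio of Srebf1 was 0.67. A list for the loop of SCD and Wnt held Ctnnb1, Lrp5, Lrp6 and Elavl1, which the study places in it, and Tcf7l2, a transcription factor partner of beta-catenin that was added here, and 0 of 5 differed by 2-fold in any comparison. Ctnnb1, which encodes beta-catenin, had means of 89.9, 105 and 106, and Lrp6, a Wnt co-receptor, 63.8, 71.5 and 79.6. Their median log2 ratio between Scd2f/f;CC and treated Scd2f/f was 0.13, which turned to -0.04 with scaling to the summed means. These values are of RNA. For protein, the study reported lower CTNNB1, HUR (encoded by Elavl1) and LRP6 in Scd2f/f;CC by immunoblot.

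The patterns of Scd1 and Scd2 over the 3 group means lay apart, at a distance of 1.62 in the plane of the log2 ratios of treated to untreated Scd2f/f and of Scd2f/f;CC to treated Scd2f/f. Among the 11784 genes whose mean over the groups reached 1, the 10 nearest to Scd1 lay within 0.117 and were Cd300c2, Oas1g, Vnn1, Ikzf1, Acot2, Apbb1ip, Gbp3, Abcg1, Pla2g4a and Cfp. Vnn1, a pantetheinase, had means of 19.4, 76.7 and 67.5, Acot2, a mitochondrial acyl-CoA thioesterase, 1.87, 7.08 and 5.52, and Abcg1, a sterol exporter, 3.53, 12.7 and 10.1. The 10 nearest to Scd2 lay within 0.322 and were Socs3, Lamc3, Cd72, Mmp2, Loxl1, S100a11, Cd63, Scara3, Frzb and Cd24a. Socs3, an inhibitor of cytokine signaling, had means of 6.44, 16.2 and 4.71. Mmp2, a matrix metalloproteinase, had means of 1.19, 3.06 and 1.07, Loxl1, which crosslinks elastic fibers, 0.902, 2.01 and 0.525, and Lamc3, a laminin chain, 1.07, 2.84 and 0.780. These are likenesses over 3 values that share the mean of treated Scd2f/f, with no test. The limit on the mean favors genes that are high in a treated group: Cd72, Loxl1 and Frzb were under 1 in both other groups and passed it through treated Scd2f/f, and Cd300c2, Oas1g and Pla2g4a were under 1 in untreated liver. With a pseudocount of 1 added to the means, 1 of the 10 stayed among the nearest of Scd1 and 5 of the 10 among those of Scd2.

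**Figure D4:**
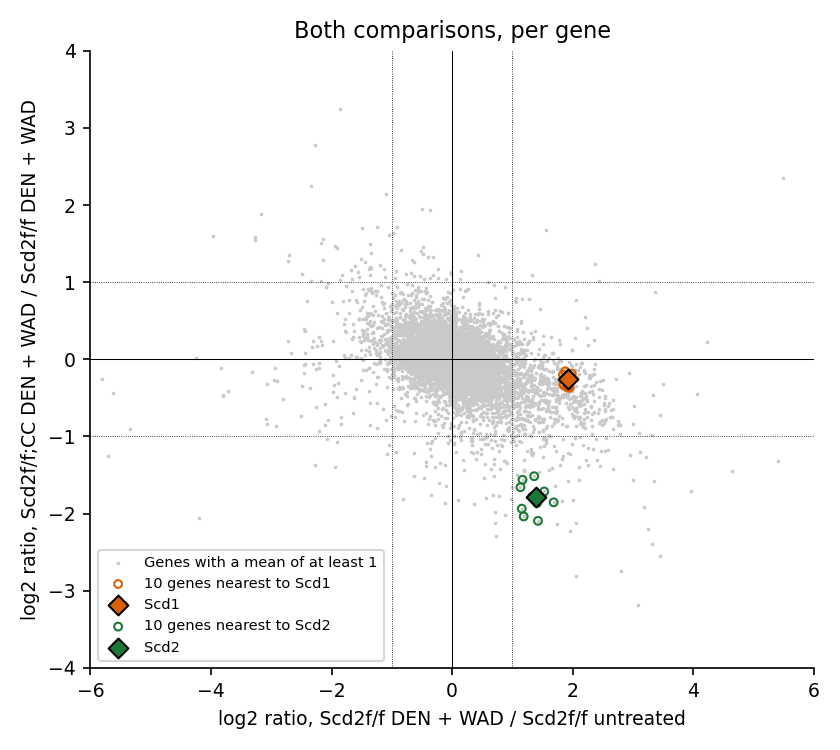
Log2 ratios of treated to untreated Scd2f/f liver (horizontal) and of Scd2f/f;CC to Scd2f/f, both treated (vertical), for 11767 genes whose mean over the groups reached 1 (gray; 17 more lie outside the axes), with dotted lines at 2-fold. Scd1 lies at 1.93 and -0.26 and Scd2 at 1.40 and -1.79, each among its 10 nearest genes (open circles).

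Genes around the cluster were set beside the members. Within 500 kb of the cluster, 14 further genes of chromosome 19 were measured. With DEN + WAD, 0 of 14 were higher and 1 lower by at least 2-fold, with a median log2 ratio of 0.05 and a highest of 0.61 (Cyp2c44, a cytochrome P450 of liver). Between Scd2f/f;CC and treated Scd2f/f, 1 was higher and 0 lower, with a lowest log2 ratio of -0.17. The gene past 2-fold in each was Gm24336, annotated as a snoRNA, at means of 1.21, 0.552 and 1.24. The nearest measured gene below Scd2 was Bloc1s2, at 9.5, 5.67 and 6.11, and the nearest beyond Scd1 was Sec31b, at 1.48, 1.93 and 2.18.

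**Figure D5:**
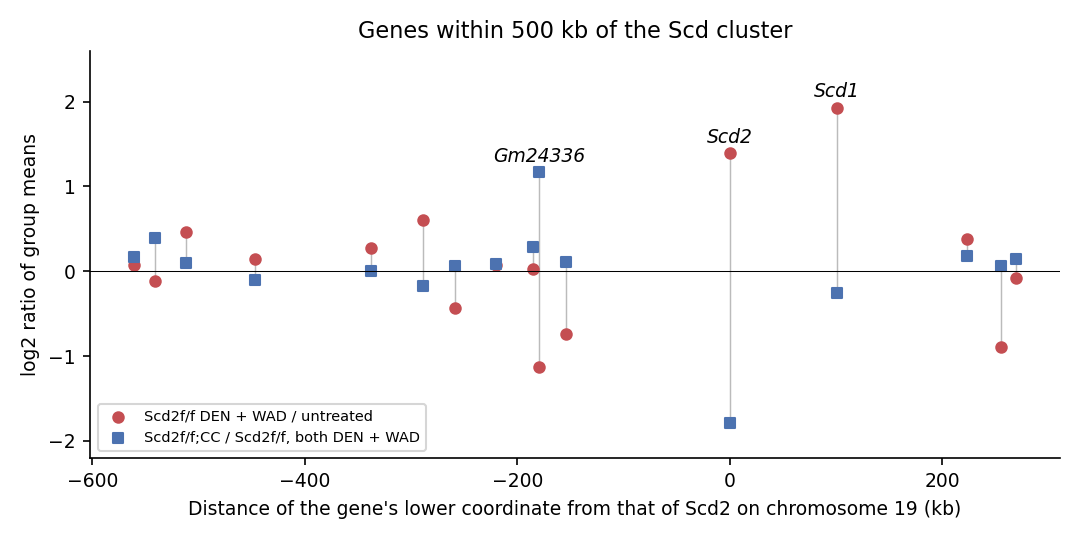
Log2 ratios of group means for the 16 measured genes within 500 kb of the Scd cluster against the distance from Scd2 in kb, for treated against untreated Scd2f/f liver (circles) and Scd2f/f;CC against Scd2f/f, both treated (squares). Scd1 (1.93) and Scd2 (1.40) stand above the others, of which the highest circle is at 0.61.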

How the data were processed

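The authors prepared polyadenylated RNA from liver of 9 mice with TruSeq v2 chemistry and sequenced it on a NextSeq instrument. The submitters' processing notes name STAR 2.6.1, Partek 6 and mm10. Per the study's methods, the authors assigned reads to genes of Gencode M3 with the Partek E/M method and scaled the gene-level counts of all samples by upper quartile normalization. The deposited signal is a least-squares mean of these counts for each group, with 3 significant digits. Of 18 columns in the table, 3 with group means were used. Other columns hold p-values, false discovery rates, ratios and fold changes of the authors' 2 comparisons and were not used. Depth is unknown.

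Log2 ratios were computed from the means with no pseudocount, and 2-fold was the limit for counts. No test was run, since 1 mean per group was used and the authors' test results were not, so no p-value is given. The members and lists were chosen with earlier results of these data known. Lists were those of desaturase electron donors, other desaturases, elongases, supply and use of substrates and products, regulators, the SCD-Wnt loop with Tcf7l2 and cell types. Named genes were the members, genes of the lists, the 10 genes nearest to each member in the plane of both log2 ratios (mean over the groups of 1 or more), and genes within 500 kb of the cluster. Of genes matched to GENCODE M21 by symbol, 16171, 99.975% overlapped the gene of that name on GRCm38. Coding sequences were aligned globally with Biopython 1.88. Steps were tested on simulated data. Alternatives were pseudocounts of 0.1 and 1, centring on the median, scaling to summed means, a 1.5-fold limit, a filter on the mean and means per exonic length. Scripts ran in Python 3.11.15, with pandas 2.3.3, NumPy 2.4.6 and Matplotlib 3.10.9.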

Additional observations from a re-analysis of the deposited data

How the results depend on the processing

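The log2 ratios of Scd1 and Scd2 kept their sign in all 3 comparisons under the 4 alternatives run for them. The same pseudocount added to both means cannot turn a sign, so only centring and scaling could have done so. In the order treated against untreated Scd2f/f, Scd2f/f;CC against treated Scd2f/f, and Scd2f/f;CC against untreated Scd2f/f, those of Scd2 were 1.11, -1.38 and -0.27 with a pseudocount of 1, 1.36, -1.74 and -0.38 with a pseudocount of 0.1, 1.37, -1.80 and -0.44 when centred on the median gene (among those whose mean reached 1), and 1.71, -1.96 and -0.25 when scaled to the summed means. Those of Scd1 were 1.90, -0.27 and 1.63 when centred and 2.25, -0.43 and 1.82 when scaled to the summed means, and stayed within rounding with either pseudocount. Scaling to the summed means shifted every gene by 0.32, -0.17 and 0.15, since the means of all genes summed to 820581 in untreated liver, 658322 in treated Scd2f/f and 739723 in Scd2f/f;CC. A few genes weigh heavily in these sums. Rn7s1 and Rn7s2 had means of 65300, 27500 and 51000 each, and CT010467.1 had means of 76300, 15800 and 6120. Results on this scale, the turned list medians included, therefore depend in part on such genes. The same members stood past the limit of 1.5-fold as past that of 2-fold. At 1.5-fold, genes higher and lower numbered 2888 and 1886, 959 and 1642, and 2489 and 1824 in the 3 comparisons, and at 2-fold among genes whose mean reached 1 they numbered 754 and 341, 76 and 181, and 531 and 301, against 1570 and 785, 305 and 682, and 1074 and 777 among all genes. The share of Scd2 in the pair was 0.147%, 0.102% and 0.0352% in untreated, treated Scd2f/f and Scd2f/f;CC liver from the means as deposited, and 0.132%, 0.0910% and 0.0315% per exonic length. With a pseudocount of 1, 1 of the 10 genes nearest to Scd1 and 5 of those nearest to Scd2 were among the nearest again. No paired analysis was possible because 1 mean per group was used, and for the same reason no mouse could be left out.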

Other observations

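Known targets of 2 nuclear receptors were listed after values of these data had been seen, and are given as a description. Abcg1, Vnn1 and Acot2 of these lists were also among the genes nearest to Scd1. Of 10 targets of the liver X receptors, 4 were at least 2-fold higher in treated than in untreated Scd2f/f liver and 0 lower by as much, with a median log2 ratio of 0.66. Abcg5 and Abcg8, which together export sterols into bile, had means of 28.3 and 32.7 in untreated liver, 59.2 and 67.6 in treated Scd2f/f, and 99.0 and 114 in Scd2f/f;CC. Between the treated groups, Abcg5 and Abcg8 had the largest log2 ratios of the 10 targets, at 0.74 and 0.75 for Scd2f/f;CC against Scd2f/f. In that comparison 5 of the 10 had a larger mean and 5 a smaller one, 0 of them by 2-fold. The median log2 ratio was -0.02. Any link of these targets to the mean of Scd1 was not tested. Lpl, the lipoprotein lipase, had means of 16.3, 83.6 and 66.2. Of 12 targets of PPARA, a receptor of fatty acids in hepatocytes, 8 were at least 2-fold higher after DEN + WAD and 0 lower, with a median of 1.44. Cyp4a14, a fatty acid hydroxylase, had means of 32.9, 158 and 137. Fgf21, a hepatokine, had means of 0.167, 4.19 and 1.53, and was the 1 of the 12 that was lower by at least 2-fold in Scd2f/f;CC than in treated Scd2f/f.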
